A study of Rattus norvegicus with 54 samples.

Results

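The genes described are the cytosolic ribosomal protein genes of the rat left ventricle one week after myocardial infarction (MI). They were chosen by name, as the symbols made of Rpl or Rps and a number with at most a closing a or x, together with the stalk genes Rplp0, Rplp1 and Rplp2, with Rpsa, and with the muscle paralog Rpl3l. The rule found 74 of the 40319 genes listed, of which 41 encode proteins of the large subunit, 29 proteins of the small subunit, 3 the stalk and 1 the muscle paralog. Hearts came from female athymic rats (F344/NJcl-rnu/rnu) that were 8 weeks old at surgery. The sham group had surgery without infarction and the MI group had its left anterior descending artery ligated proximally and no treatment. The cell sheet group had the same ligation and a bi-level sheet of human smooth muscle cells and endothelial progenitor cells laid over the infarct. Athymic rats lack mature T cells, which lets human cells persist and limits all 3 groups as a model of infarct healing. Each of 18 hearts gave an infarct, a border and a remote zone library of polyadenylated RNA, 54 libraries in 9 groups of 6.

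A ribosome is built from a small subunit, which reads the mRNA, and a large subunit, which joins the amino acids. Ribosomal proteins are made in nearly matching amounts, and their mRNAs typically begin with a run of pyrimidines, the 5′ terminal oligopyrimidine (TOP) tract, through which mTORC1 and Larp1 control their translation. Striated muscle is known for an exchange within the large subunit, in which Rpl3l takes the place of Rpl3, the protein that lies beside the catalytic centre. Heart muscle uses Rpl3l in the healthy adult state, and Rpl3 is the form of most other cells.

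The annotated start sites of 6 members on which the results turn are shown, searched for short pyrimidine words. These words do not by themselves define such a tract. Each run has 30 bases, 15 before the start and 15 from it onward, so that the annotated start is base 16. Capitals mark the word CTCTTT, the word CCTTTC, the word CTTTCC or the word CTTTTC on the strand of the gene, and these words may overlap each other. The sequences are from RefSeq, build GRCr8, and lie at chr7:113507976-113508005 (minus strand) for Rpl3, chr10:14258431-14258460 (plus) for Rpl3l, chr16:96502-96531 (plus) for Rps24, chr14:107488927-107488956 (minus) for Rps27a, chr12:46718376-46718405 (minus) for Rplp0 and chr20:6390518-6390547 (plus) for Rpl10a.
Rpl3: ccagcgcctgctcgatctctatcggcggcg
Rpl3l: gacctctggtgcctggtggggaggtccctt
Rps24: tgagcggtcCTCTTTTCctcctttacagct
Rps27a: cctaaagggcggttccttcgacccggagac
Rplp0: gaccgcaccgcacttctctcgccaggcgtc
Rpl10a: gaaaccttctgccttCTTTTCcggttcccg
Rps24 and Rpl10a held such a word and the other 4 did not. The starts of Rpl3, Rps27a and Rplp0 nevertheless lie in runs of c and t, so lack of these words is not lack of a tract. Rpl3l began with a run rich in g. The promoter table matched 59 of the 74 members, with 60 entries. At least 1 of the words lay within 15 bases of the start in 33 of these 60 entries (55%), in 4 of 65 mitochondrial ribosomal protein promoters (6.15%) and in 1263 of 33465 promoters overall (3.77%). Within the full 300 bases, CCGGAAG or its reverse complement occurred in 33.3% of the member promoters, 32.3% of the mitochondrial ribosomal protein promoters and 8.75% of all promoters. AAGATGGC occurred on either strand in 6.67%, 24.6% and 3.17% of the same sets, and TATAAA in 10%, 13.8% and 14.2%. CCGGAAG can overlap CTTTCC, since it begins with the CC on which CTTTCC ends. These matches describe letters only.

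Counts on genes ranged from 12699204 to 23397754 per library, and all 74 members passed the filter on low counts in each of the 9 comparisons. Levels are CPM, counts scaled to a common library size by TMM over all libraries, and they are compared only between samples for the same gene. In the heart muscle marker list, all 8 of 8 genes (Myh6, Tnnt2 and others) were detected, with a summed level of 61309 to 74828 CPM in 15 of the 18 sham libraries. Sham replicate 5 stood apart in all zones. Its heart muscle sum was 19712 to 29352 CPM, and its macrophage sum reached 12273 CPM in the infarct zone, where the other sham libraries lay at 399 to 783 CPM. Cell sheet replicate 1 also stood apart, with a heart muscle sum of 448 CPM in the border zone against 8823 to 24408 CPM in the other 5 libraries, and of 20809 CPM in the remote zone against 43891 to 74130 CPM. Results that rest on these animals are given with and without them.

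The members together took a share of all gene counts that ran from 2.16% to 6.68% of a library. In the infarct zone the share was 3.93% ± 0.73 in sham, 5.24% ± 0.46 in MI and 5.09% ± 0.96 in cell sheet hearts (SD, n = 6 each). In the border zone it was 3.65% ± 0.79 in sham, 5.42% ± 0.70 in MI and 3.23% ± 0.53 in cell sheet hearts. All 6 MI border libraries, at 4.91% to 6.68%, lay above all 6 cell sheet border libraries, at 2.61% to 3.97%. In the remote zone the share was 2.51% ± 0.36 in sham, 4.10% ± 0.58 in MI and 2.79% ± 0.51 in cell sheet hearts, and MI (3.05% to 4.67%) and cell sheet libraries (2.38% to 3.62%) overlapped. Without sham replicate 5, the sham means were 3.66%, 3.41% and 2.38% in the infarct, border and remote zone. Without cell sheet replicate 1, the cell sheet means were 5.27%, 3.08% and 2.71%. The mean share was thus highest in MI in the border and remote zone with or without both animals. For the infarct zone, MI and cell sheet hearts differed by less than their spread, and the cell sheet mean was the higher of both without cell sheet replicate 1.

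**Figure D1:**
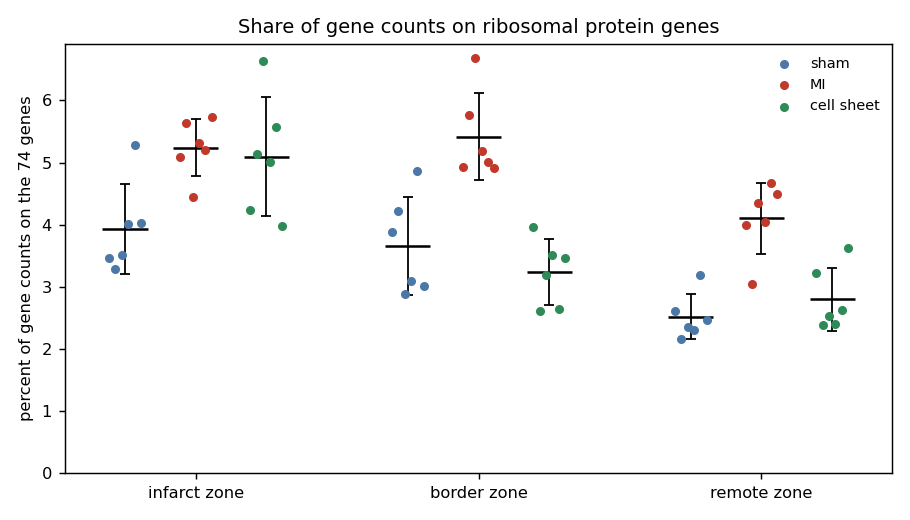
Percent of gene counts on the 74 ribosomal protein genes (y axis, from 0) for each library, by zone (x axis) and treatment (colour). Points are libraries, horizontal lines are means and bars are SD (n = 6). The 6 MI border libraries (4.91% to 6.68%) sit above the 6 cell sheet border libraries (2.61% to 3.97%).

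The first question was how infarction changed the ribosomal protein genes in each zone. In the infarct zone, 23 members rose and 5 fell in MI against sham (edgeR quasi-likelihood test, adjusted p under 0.05), while 22.7% of all genes tested rose and 27.2% fell. The median log2 fold change of the members was 0.12, beside -0.02 for all genes. The share of members called higher lay above the background and the share called lower lay below it. Counting both directions, 46 of 74 members and 7892 of 15758 genes tested were not called, so members were called less often than all genes. The groups did not overlap in 4 higher and 1 lower member, in each direction a smaller share than the 8.72% and 5.39% of all genes. Of the small subunit genes 9 rose and 2 fell, of the large subunit genes 13 rose and 2 fell, and of the stalk genes 1 rose.

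In the small subunit, Rps16 rose by a log2 fold change of 0.75 (SE 0.15, adjusted p = 0.00239) in the infarct zone. Its level was 725 CPM at the lowest, 880.0 at the median and 1059 at the highest in sham, and 1151, 1476 and 1660 CPM in MI, so that the groups did not overlap. Rps29, a small zinc-binding protein of the subunit head, fell, from 496, 583 and 808 CPM in sham to 325, 434 and 453 CPM in MI (log2 fold change -0.54, SE 0.15, adjusted p = 0.00968), again without overlap. Rps21 fell with it (-0.37, SE 0.13, adjusted p = 0.0372). Rps6, the substrate of S6 kinase, was at 0.12 (SE 0.13, adjusted p = 0.451), and Rpsa, also known as the laminin receptor, rose (0.50, SE 0.15, adjusted p = 0.0171).

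In the large subunit, Rpl6 rose without overlap, from 371, 429 and 548 CPM in sham to 575, 652 and 777 CPM in MI (0.60, SE 0.13, adjusted p = 0.0032). Rpl13 rose by 0.54 (SE 0.15, adjusted p = 0.0113). Rpl38, known for its part in the translation of Hox mRNAs in the embryo, fell from 167, 211 and 273 CPM to 99.3, 132 and 186 CPM (-0.62, SE 0.17, adjusted p = 0.0094), with overlap. Rpl30 fell by 0.35 on the log2 scale (SE 0.12, adjusted p = 0.0304). Rpl5 and Rpl11, which form a particle with the 5S rRNA and bind Mdm2, were at 0.07 (adjusted p = 0.624) and -0.06 (adjusted p = 0.651). Of the stalk, which recruits the elongation factors, Rplp0 rose from 523, 579 and 844 CPM to 802, 955 and 1102 CPM (0.64, SE 0.15, adjusted p = 0.00482), whereas Rplp1 was at 0.12 (adjusted p = 0.467) and Rplp2 at -0.00086 (adjusted p = 0.995).

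The number of members called in the infarct zone depended on single libraries. It was 34 (30 higher, 4 lower) without sham replicate 5, and 18 without MI replicate 2, MI replicate 6 or sham replicate 2, 3, 4 or 6. With library size alone as the scaling, 39 were higher and 1 lower, with the median of all genes at 0.24, and without the filter on low counts 18 were called. Heart muscle markers fell in 8 of 8 genes, with summed levels of 22123 to 74828 CPM in sham and 2484 to 37152 CPM in MI, and fibroblast markers rose in 6 of 7 (3573 to 5254 CPM in sham, 12226 to 34289 CPM in MI). Macrophage markers rose in 4 of 8 (399 to 12273 against 2486 to 11461 CPM), and reads on no gene averaged 28.2% in sham and 17.8% in MI. The part of these in the changes was not tested, and in such bulk samples fewer cells of a type and less RNA per cell cannot be told apart.

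In the border zone, 30 members rose and 1 fell in MI against sham, while 18.4% of all genes tested rose and 23.2% fell. The median of the members was 0.35, beside -0.02 for all genes, and 9 higher members did not overlap, against 6.99% of all genes. The small subunit had 14 of its 29 members higher, the large subunit 15 of 41 and the stalk 1 of 3.

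Rps12 rose in the border zone without overlap, from 335, 404 and 636 CPM in sham to 640, 688 and 943 CPM in MI (0.74, SE 0.18, adjusted p = 0.00887). Rpl10a, the protein of the mobile L1 stalk near the tRNA exit site, also rose without overlap, from 253, 300.3 and 384 to 407.5, 425 and 594 CPM (0.59, SE 0.14, adjusted p = 0.00843). Rpl41, a peptide that is among the shortest proteins known, rose from 632, 739 and 1024 to 976, 1269 and 1732 CPM with slight overlap (0.72, SE 0.18, adjusted p = 0.00905). Rpl39, which lines the tunnel through which the new protein leaves, rose by 0.61 (SE 0.22, adjusted p = 0.0392). Rplp1 rose (0.59, adjusted p = 0.0157), Rplp0 was at 0.44 (adjusted p = 0.0628) and Rplp2 at -0.01 (adjusted p = 0.937). Rpsa rose by 0.55 (adjusted p = 0.0276) and Rps6 by 0.40 (adjusted p = 0.0281), and Rpl5 (0.31, adjusted p = 0.0674) and Rpl11 (0.26, adjusted p = 0.0976) were not called.

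The border zone number was 47 without sham replicate 5, and 11 without MI replicate 3 or sham replicate 3, 4 or 6. It was 61 (60 higher, 1 lower) with library size alone as the scaling, with the median of all genes at 0.17, and 19 without the filter on low counts. Heart muscle markers fell in 8 of 8 (19712 to 68913 CPM in sham, 4320 to 29795 CPM in MI), fibroblast markers rose in 7 of 7 (3325 to 5010 against 14110 to 39844 CPM) and macrophage markers in 5 of 8 (330 to 12252 against 2755 to 8575 CPM). Reads on no gene averaged 28.2% in sham and 18.6% in MI, and the part of these was not tested.

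In the remote zone, 64 members rose and 1 fell in MI against sham, the most members called among the 3 zones, while 11.7% of all genes tested rose and 14.2% fell. The median of the members was 0.59, beside -0.04 for all genes. Of the small subunit genes 26 of 29 rose, of the large subunit genes 35 of 41, and all 3 stalk genes rose. The 6 libraries of MI lay above the 6 of sham without overlap in 15 members, against 3.82% of all genes.

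Rpl39 rose from 54.1, 70.9 and 112 CPM in sham to 137, 184 and 232 CPM in MI (1.26, SE 0.19, adjusted p = 0.00133), without overlap. Rps27, a zinc-finger protein of the small subunit, rose from 144, 195 and 315 to 325, 433 and 499 CPM (0.98, SE 0.21, adjusted p = 0.00525), also without overlap. Rps29, lower in the infarct zone, was higher here, with 196, 249 and 477 CPM in sham and 391.9, 648 and 722 CPM in MI (0.96, SE 0.26, adjusted p = 0.0187). Rpl37 rose by 1.26 (SE 0.32, adjusted p = 0.0124) at only 0.675 to 5.74 CPM, a level so low that reads shared with copies of the gene make it uncertain.

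Among the genes with known further roles, Rplp1 rose by 0.90 (adjusted p = 0.00223), Rplp0 by 0.46 (adjusted p = 0.0463), Rplp2 by 0.33 (adjusted p = 0.0383), Rpsa by 0.61 (adjusted p = 0.00716), Rps6 by 0.59 (adjusted p = 0.00695), Rpl5 by 0.44 (adjusted p = 0.0115) and Rpl11 by 0.53 (adjusted p = 0.00473). Members not called included Rpl7a, Rpl27, Rpl8, Rpl13, Rpl36, Rps28 and Rpl22, and had log2 fold changes of 0.11 to 0.52. The number called was 55 to 73 when any library was left out, and 73 without sham replicate 5. Heart muscle markers fell in 5 of 8 genes here (29352 to 69238 CPM in sham, 26195 to 43772 in MI), fibroblast markers rose in 6 of 7 (2845 to 4478 against 5577 to 20991 CPM) and macrophage markers in 2 of 8 (325 to 7044 against 862 to 3151 CPM). Reads on no gene averaged 29.4% in sham and 31.2% in MI, and the part of these was not tested.

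The effect of infarction differed between the infarct and the remote zone in 34 members, by an interaction test with the animal as a block. All 34 had a smaller rise, or a fall, in the infarct zone, and 28.9% of all genes tested differed in either direction. The median difference of the members was -0.40, beside 0.01 for all genes. Rps29 differed by -1.56 (SE 0.26, adjusted p = 0.00146), Rpl38 by -1.40 (SE 0.18, adjusted p = 0.000615), Rpl39 by -1.34 (SE 0.19, adjusted p = 0.000832), Rplp1 by -0.77 (SE 0.19, adjusted p = 0.0107) and Rpl11 by -0.58 (SE 0.16, adjusted p = 0.017). Rplp0, at 0.19 (adjusted p = 0.407), and Rpsa, at -0.09 (adjusted p = 0.727), were not called. Between the border and the remote zone 0 members passed the same edgeR test (0% of all genes), 13 of them with an unadjusted p under 0.05.

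**Figure D2:**
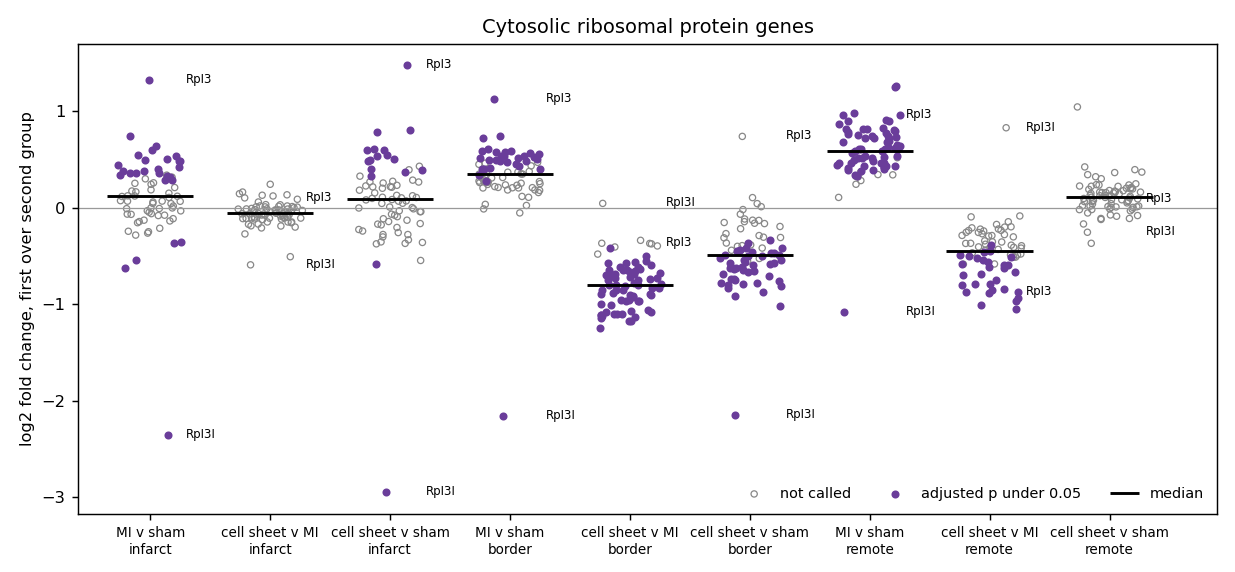
Log2 fold change of each of the 74 genes (y axis, first group over second) in the 9 comparisons (x axis, treatments and zone). Filled points have an edgeR adjusted p under 0.05, open points do not, and black lines are medians. The median is -0.80 for cell sheet against MI in the border zone and 0.59 for MI against sham in the remote zone, and Rpl3l lies far below the other genes in each comparison of MI with sham.

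The second question was how hearts with a cell sheet differed from untreated MI hearts. In the border zone the ribosomal protein genes were lower almost throughout. Of the 74 members 66 fell and 0 rose, while 9.48% of all genes tested fell and 8.47% rose. The median was -0.80, beside -0.0044 for all genes, and in 64 members all cell sheet libraries lay below all MI libraries, against 5.69% of all genes. The small subunit had 26 of 29 members lower (median -0.90), the large subunit 38 of 41 (median -0.75) and the stalk 2 of 3.

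The 5 with the largest fall included Rps27a, a small subunit protein made as a fusion with ubiquitin. Its level was 886, 998.7 and 1277 CPM in MI and 312, 452 and 542 CPM in cell sheet hearts (-1.25, SE 0.16, adjusted p = 0.000682). Rps24 was at 859.9, 979 and 1074 CPM in MI and 309.9, 446 and 508 CPM in cell sheet hearts (-1.17, SE 0.14, adjusted p = 0.000609). Both genes were low in every cell sheet library, with a wide gap to the lowest MI library. Rps20 fell by 1.17 on the log2 scale (SE 0.17, adjusted p = 0.00121), Rps29 by 1.14 (SE 0.22, adjusted p = 0.00423) and Rpl41 by 1.14 (SE 0.18, adjusted p = 0.00184), each without overlap.

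In the stalk Rplp1 fell from 1127, 1236 and 1656 CPM to 424.5, 649 and 713 CPM (-1.08, SE 0.16, adjusted p = 0.00129) and Rplp2 fell by 0.64 on the log2 scale (SE 0.10, adjusted p = 0.00146). Rplp0, the scaffold that carries both, was not called, at 755, 857 and 1045 CPM in MI and 530, 707 and 754 CPM in cell sheet hearts (-0.37, SE 0.13, adjusted p = 0.0642). Rpsa (-0.80, adjusted p = 0.00278), Rps6 (-0.74, adjusted p = 0.00531), Rpl5 (-0.73, adjusted p = 0.00429) and Rpl11 (-0.85, adjusted p = 0.00139) fell. The 8 members not called included Rpl3, Rpl3l, Rpl6, Rpl35, Rplp0, Rps4x and Rps28, and all 8 but Rpl3l had negative log2 fold changes (-0.48 to -0.34).

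The number of members called in the border zone was 62 to 68 when any library was left out, and 68 without cell sheet replicate 1. Of the 66 members called, 62 to 66 kept their call, and all 66 did without cell sheet replicate 1. Markers of heart muscle and fibroblasts had 0 of 8 and 0 of 7 genes called by edgeR in this comparison (0 and 3 at an unadjusted p under 0.05), with summed levels of 4320 to 29795 and 14110 to 39844 CPM in MI and of 448 to 24408 and 23346 to 49263 CPM in cell sheet hearts. Macrophage markers fell in 1 of 8 genes (2755 to 8575 against 1784 to 5667 CPM), mural cell markers rose in 4 of 6 (474 to 700 against 899 to 1136 CPM), and reads on no gene averaged 18.6% in MI and 16.7% in cell sheet hearts. The part of these values in the fall was not tested.

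**Figure D3:**
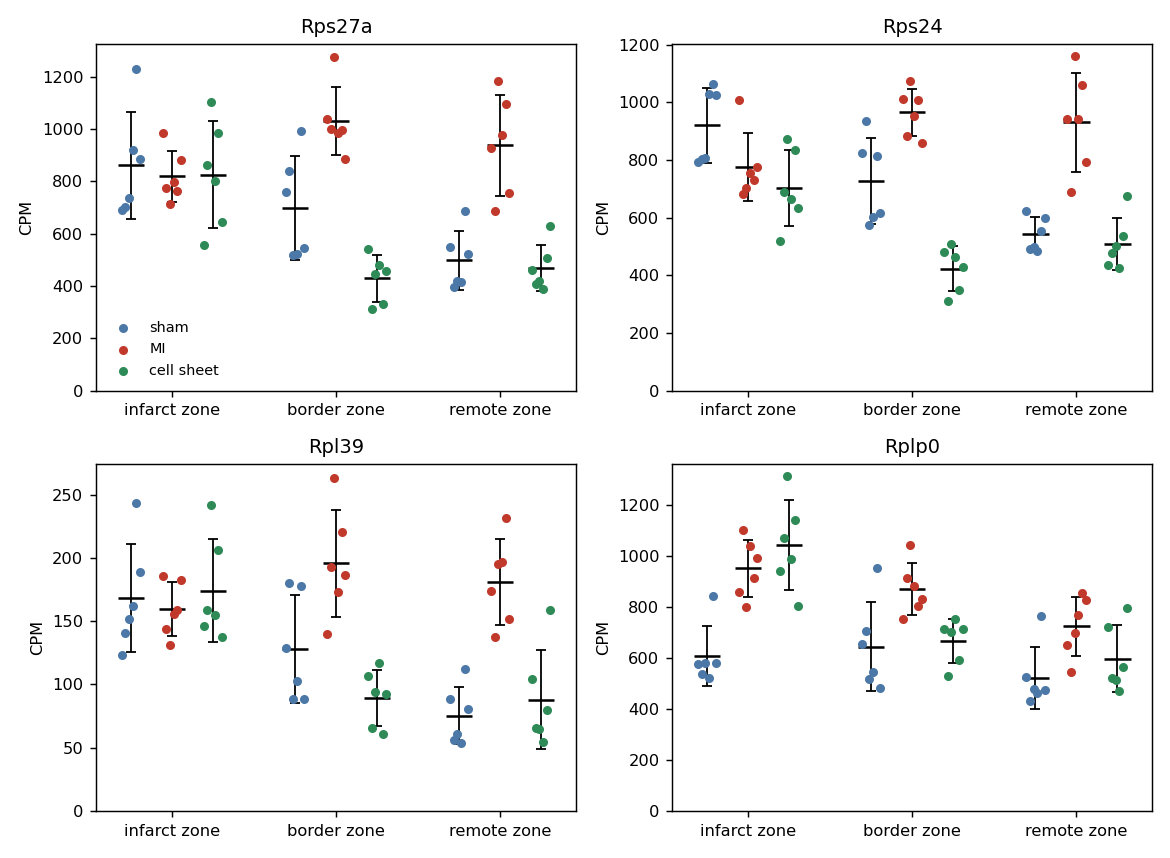
CPM of Rps27a, Rps24, Rpl39 and Rplp0 (y axes, from 0) per library by zone (x axis) and treatment (colour), with means as lines and SD as bars (n = 6). In the border zone the cell sheet libraries of Rps27a (312 to 542) lie below those of MI (886 to 1277), and those of Rplp0 (530 to 754) end beside the lowest MI library (755).

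In the remote zone 30 members fell and 0 rose in cell sheet against MI hearts, while 6.79% of all genes tested fell and 10.3% rose. The median of the members was -0.45, beside 0.01 for all genes, and 3 lower members did not overlap, against 1.93% of all genes. The small subunit had 13 of 29 members lower, the large subunit 15 of 41 and the stalk 2 of 3.

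Rps27a was at 685, 952 and 1183 CPM in MI and at 388, 439 and 629 CPM in cell sheet hearts (-1.01, SE 0.17, adjusted p = 0.00668). Rps24 was at 688, 941 and 1159 against 424, 490 and 675 CPM (-0.88, SE 0.16, adjusted p = 0.00756), and in both genes the groups did not overlap. Rpl39 was at 137, 184 and 232 against 54.5, 72.7 and 159 CPM with overlap (-1.05, SE 0.24, adjusted p = 0.0155). Rps29 fell by 0.97 on the log2 scale (SE 0.26, adjusted p = 0.0276) and Rpl26, a protein near the tunnel exit, by 0.93 (SE 0.17, adjusted p = 0.00777).

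Rplp1 (-0.80, adjusted p = 0.0104), Rplp2 (-0.69, adjusted p = 0.0193), Rpsa (-0.54, adjusted p = 0.0268), Rps6 (-0.67, adjusted p = 0.0139), Rpl5 (-0.52, adjusted p = 0.022) and Rpl11 (-0.56, adjusted p = 0.0221) fell in the remote zone, and Rplp0 was not called (-0.29, adjusted p = 0.232). The number called was 41 (1 higher) without cell sheet replicate 1. It was 12, 14, 19 and 18 without cell sheet replicate 2, 3, 4 or 5, and 16 and 13 without MI replicate 3 or 5. Heart muscle markers rose in 2 of 8 genes (26195 to 43772 CPM in MI, 20809 to 74130 in cell sheet hearts), fibroblast markers fell in 1 of 7 (5577 to 20991 against 2862 to 33812 CPM) and macrophage markers fell in 1 of 8 (862 to 3151 against 411 to 3104 CPM). Reads on no gene averaged 31.2% in MI and 23.1% in cell sheet hearts, and the part of these was not tested.

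In the infarct zone 0 members differed between cell sheet and MI hearts by edgeR (0% of all genes), and 1 had an unadjusted p under 0.05. The median was -0.06. DESeq2 on the same libraries and on all libraries together called 0 as well. Rps27a, for example, was at 715, 788 and 983 CPM in MI and at 558, 831 and 1102 CPM in cell sheet hearts. The fall was not shown to differ between zones. The interaction of treatment with border against infarct zone had 0 members called, with 64 of 74 at an unadjusted p under 0.05, a median of -0.68 and a lowest adjusted p of 0.186. Infarct against remote zone had 0 called and 27 with an unadjusted p under 0.05 (8 called without cell sheet replicate 1), and border against remote zone had 0 called and 19 with an unadjusted p under 0.05. No gene of the series passed these 3 interaction tests (0%).

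The third question was how far hearts with a cell sheet lay from sham. These comparisons share libraries with those above and are not independent of them. In the infarct zone 15 members rose and 2 fell, while 28.6% of all genes tested rose and 29.2% fell, so that the share of members called by this test was not above the background. The number called, 17, was 33 (32 higher, 1 lower) with library size alone as the scaling, with the median of all genes at 0.28, and 26 (17 higher, 9 lower) by DESeq2 on all libraries. Rplp0 rose by 0.80 (SE 0.15, adjusted p = 0.00123), with 523, 579 and 844 CPM in sham and 804, 1029 and 1315 CPM in cell sheet hearts. Rpl6 rose by 0.79 (SE 0.14, adjusted p = 0.000864) and Rpl12, at the stalk base, by 0.60 (SE 0.13, adjusted p = 0.00209), both without overlap. They were the only 2 members of which this held, a smaller share than the 11.8% of all genes. Rps26, which contacts the mRNA near its exit, rose by 0.61 (SE 0.16, adjusted p = 0.0069), and Rpl38 fell by 0.58 on the log2 scale (SE 0.16, adjusted p = 0.00876). The number was 11 without sham replicate 1 or 3, 20 without sham replicate 5 and 22 without both animals that stood apart, and without cell sheet replicate 3 it turned to 8 higher and 12 lower. Heart muscle markers fell in 7 of 8 genes (22123 to 74828 CPM in sham, 907 to 33397 CPM in cell sheet hearts), and fibroblast markers rose in 6 of 7 (3573 to 5254 against 26126 to 53355 CPM) and macrophage markers in 5 of 8 (399 to 12273 against 2011 to 12447 CPM). Reads on no gene averaged 28.2% and 12.97%, and the part of these was not tested.

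In the border zone 46 members fell and 0 rose in cell sheet against sham hearts, while 23.2% of all genes tested fell and 20.4% rose. The median was -0.49, beside -0.03 for all genes, and 21 members did not overlap, against 10.2% of all genes. Rpl38 was at 118, 141 and 229 CPM in sham and at 49.3, 73.8 and 111 CPM in cell sheet hearts (-1.02, SE 0.22, adjusted p = 0.00309). Rps25, a small subunit protein known for its use by viral RNAs that bind ribosomes directly, was at 327, 424 and 548 against 177, 243 and 287 CPM (-0.92, SE 0.18, adjusted p = 0.00145). In both genes the groups did not overlap. Rpl9 fell by 0.83 on the log2 scale (SE 0.16, adjusted p = 0.0017). With library size alone as the scaling, the number was 11 (1 higher, 10 lower), with the median of all genes at 0.24 and that of the members at -0.22. Leaving out both animals that stood apart gave 48. Heart muscle markers fell in 2 of 8 genes (19712 to 68913 CPM in sham, 448 to 24408 CPM in cell sheet hearts), while fibroblast markers rose in 6 of 7 (3325 to 5010 against 23346 to 49263 CPM), macrophage markers in 4 of 8 (330 to 12252 against 1784 to 5667 CPM) and mural cell markers in 2 of 6. Reads on no gene averaged 28.2% in sham and 16.7% in cell sheet hearts. The part of these values was not tested.

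In the remote zone 0 members differed between cell sheet and sham hearts by edgeR, and 5 had an unadjusted p under 0.05, while 0.0066% of all genes tested were called. DESeq2 called 1. The median was 0.11, and 1 member did not overlap, against 0.732% of all genes (Rps14, named after its values were seen). Rps27a was at 396, 471 and 686 CPM in sham and 388, 439 and 629 CPM in cell sheet hearts, nearly the same range, and Rpl39 was at 54.1, 70.9 and 112 against 54.5, 72.7 and 159 CPM. The largest difference, that of the low Rpl37 (1.05), was not called.

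Rpl3l, the muscle form, had the lowest log2 fold change of the 74 members in MI against sham in all 3 zones. Rpl3, the general form, had the highest in the infarct and border zone and lay within the other members in the remote zone. In the infarct zone Rpl3l was at 119, 368 and 451 CPM in sham, at 5.56, 31.2 and 206 CPM in MI and at 2.67, 5.63 and 189 CPM in cell sheet hearts. Rpl3 was at 227, 243 and 647.5 CPM in sham, at 556.5, 804 and 954 CPM in MI and at 496, 846 and 1153 CPM in cell sheet hearts. The sham library that overlapped the infarcted groups in both genes was replicate 5. In MI against sham Rpl3l fell by 2.35 on the log2 scale (SE 0.75, adjusted p = 0.0215) and Rpl3 rose by 1.33 (SE 0.28, adjusted p = 0.00326). In cell sheet against sham the values were -2.95 (SE 1.06, adjusted p = 0.0308) and 1.48 (SE 0.28, adjusted p = 0.00119). The fall of Rpl3l against sham in cell sheet hearts was not called without cell sheet replicate 1 or 2 or without sham replicate 1 or 3. Cell sheet and MI hearts were not shown to differ (Rpl3l -0.59, SE 1.16, adjusted p = 0.915, and Rpl3 0.10, SE 0.20, adjusted p = 0.914).

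In the border zone Rpl3l was at 110, 408 and 453 CPM in sham, at 17.96, 88.8 and 168 CPM in MI and at 0.871, 96.3 and 139 CPM in cell sheet hearts, the lowest value being that of cell sheet replicate 1. Rpl3 was at 194, 262.5 and 707 CPM in sham, at 579, 660.4 and 940 CPM in MI and at 444, 503 and 757 CPM in cell sheet hearts. Rpl3l fell in MI (-2.16, SE 0.54, adjusted p = 0.0094) and in cell sheet hearts (-2.15, SE 0.74, adjusted p = 0.0337) against sham, the latter call being lost on leaving out any of 8 of the 12 libraries. Rpl3 rose in MI (1.12, SE 0.30, adjusted p = 0.0121) and was not called in cell sheet hearts (0.74, SE 0.30, adjusted p = 0.0595), where it was called without sham replicate 5 and also by DESeq2.

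Remote zone levels of Rpl3l were 149, 434 and 462 CPM in sham, 96.0, 198 and 241 CPM in MI and 94.1, 337 and 454 CPM in cell sheet hearts. Rpl3 was at 178, 200.9 and 559 CPM in sham, at 315, 536 and 634 CPM in MI and at 186, 229 and 534 CPM in cell sheet hearts. The 5 cell sheet libraries other than replicate 1 had 186 to 290 CPM of Rpl3, below all MI libraries. MI against sham gave -1.08 for Rpl3l (SE 0.29, adjusted p = 0.018) and 0.97 for Rpl3 (SE 0.30, adjusted p = 0.0298). Cell sheet against MI gave 0.83 for Rpl3l (SE 0.34, adjusted p = 0.101) and -0.87 for Rpl3 (SE 0.27, adjusted p = 0.0407). Without cell sheet replicate 1 the rise of Rpl3l was called. The call of Rpl3 was lost on leaving out any of 10 libraries in cell sheet against MI, and any of 9 in MI against sham.

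**Figure D4:**
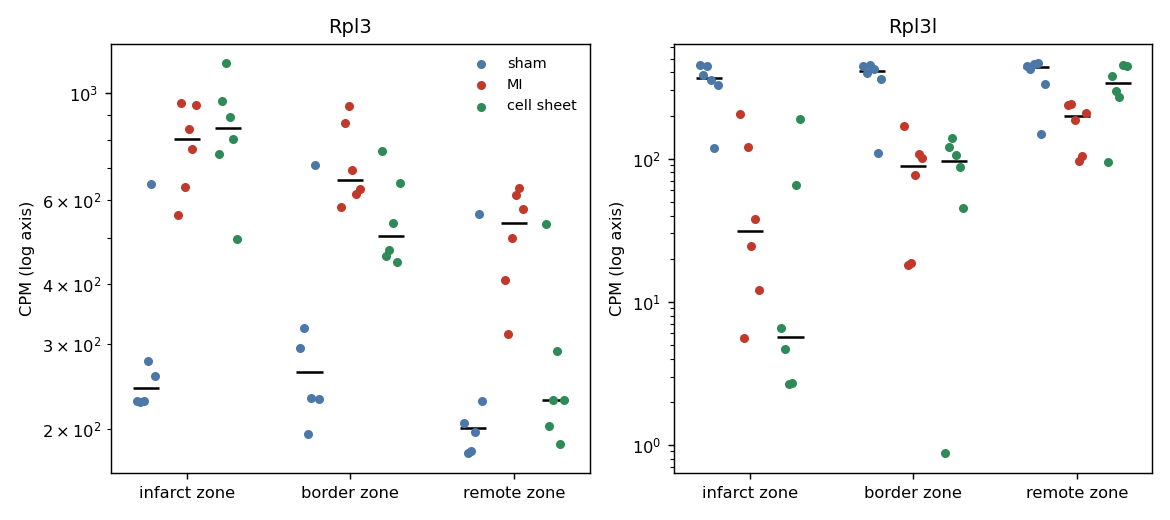
CPM of Rpl3 (left) and Rpl3l (right) per library on log axes, by zone (x axis) and treatment (colour), with medians as lines (n = 6). Remote zone cell sheet Rpl3 has its median at 229 CPM, near sham at 200.9 and below MI at 536, and replicate 5 of sham lies apart from the other sham libraries in every zone.

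The share of Rpl3l in the counts of both paralogs does not depend on the scaling. It was 53.8% ± 19.3, 54.01% ± 20.5 and 60.2% ± 19.7 in the infarct, border and remote zone of sham hearts, 8.72% ± 10.6, 10.9% ± 7.97 and 26.96% ± 11.9 in MI, and 6.17% ± 10.9, 13.8% ± 8.75 and 53.5% ± 20.6 in cell sheet hearts (SD, n = 6 each). Without sham replicate 5 the sham shares were 61.5% ± 5.14, 62.1% ± 5.56 and 68.0% ± 4.95 (SD, n = 5), and without cell sheet replicate 1 the cell sheet shares were 7.23% ± 11.8, 16.6% ± 6.27 and 61.3% ± 9.12. MI was lower than sham in every zone, with differences of -45.1, -43.2 and -33.3 percentage points in the infarct, border and remote zone (exact permutation test, 2-sided, adjusted p = 0.0195 in each, Benjamini-Hochberg over 9 comparisons, smallest unadjusted p possible 0.00216). Cell sheet hearts lay below sham in the infarct and border zone (adjusted p = 0.0195 in each, exact permutation test) and were not shown to differ from sham in the remote zone (adjusted p = 0.616). Against MI, the remote zone of cell sheet hearts was higher by 26.6 percentage points (exact 2-sided permutation, adjusted p = 0.0357). That difference was 34.3 points without cell sheet replicate 1 (adjusted p = 0.0162, exact permutation test) and lost its call on leaving out any of 8 of the 12 libraries. In the infarct and border zone the adjusted p was 0.690 and 0.616 by the same exact permutation test. The median summed heart muscle level was 67895, 35505 and 57965 CPM in sham, MI and cell sheet hearts of the remote zone, and 66042, 9766 and 2367 CPM in the infarct zone, so that it moved with this share, and its part was not tested.

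Paralogs and fusion genes outside the naming rule gave 10 of 11 listed genes in the files. In MI against sham, 6 rose and 0 fell in the remote zone, beside 11.7% and 14.2% of all genes. Among them were Rpl22l1, the paralog of Rpl22 (0.93), and Rps27l, the paralog of Rps27 (0.86). In cell sheet against MI hearts of the border zone 0 rose and 6 fell, beside 8.47% and 9.48% of all genes. Rpl22l1 (-1.29) and Rpl36al (-0.93) were among those that fell. Rack1, a scaffold on the small subunit, fell in the remote zone of cell sheet against MI hearts (-0.39). The 3 symbols that RefSeq lists for Rps9, Rps19 and Rpl35a, namely Rps9l1, Rps19l2 and Rpl35al1, were looked at after values were seen, and in cell sheet against MI hearts of the border zone they were at -0.53 (adjusted p = 0.015), -0.84 (adjusted p = 0.00275) and -0.98 (adjusted p = 0.000519).

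Mitochondrial ribosomal proteins, which build the separate ribosome of the mitochondrion, followed other counts. Of 77 listed by symbol alone, among them Mrps17-ps1, a pseudogene by its name, 73 were tested. In MI against sham 71 fell in the infarct zone (median -1.06) and 68 in the border zone (median -0.78), and 0 rose in either, while in the remote zone 2 rose and 15 fell (median -0.17). Of all genes tested, 27.2%, 23.2% and 14.2% fell and 22.7%, 18.4% and 11.7% rose in the infarct, border and remote zone. In cell sheet against MI hearts 32 fell in the border zone (median -0.55) and 0 rose, and in the remote zone 2 rose and 1 fell (median 0.09). Of all genes, 9.48% fell in the border zone. The remote zone calls were smaller shares than the 10.3% of all genes that rose and the 6.79% that fell. Against sham, the infarct and border zones of cell sheet hearts had 71 and 73 lower, beside 29.2% and 23.2% of all genes, and the remote zone 0 called. The steepest fall in MI against sham of the infarct zone was that of Mrpl42 (-1.80), and Mrps18c (-1.40) and Mrpl33 (-1.25) led in cell sheet against MI hearts of the border zone. In the infarct zone of MI the cytosolic members thus had more calls upward than downward and the mitochondrial genes only calls downward, with no test made between the lists.

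**Figure D5:**
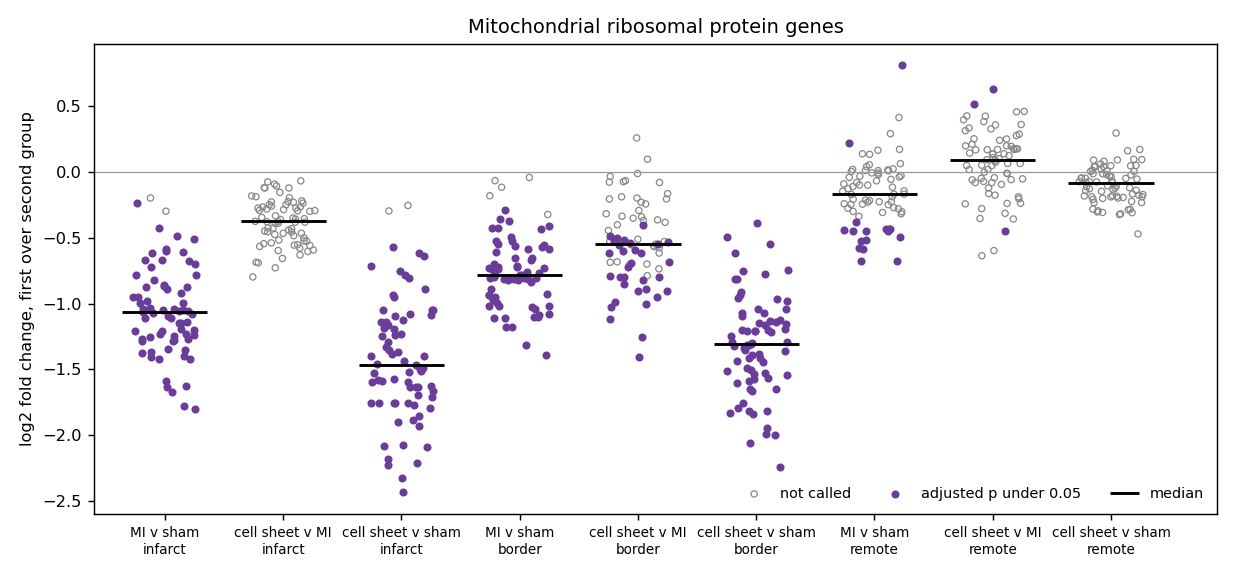
Log2 fold change (y axis, first group over second) of the 73 mitochondrial ribosomal protein genes tested, in the same 9 comparisons (x axis). Filled points have an edgeR adjusted p under 0.05 and lines are medians. The median of MI against sham is -1.06 in the infarct zone and -0.17 in the remote zone, where that of the cytosolic genes is 0.59.

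The factors that load and move ribosomes were counted from lists. Of 17 elongation and termination factors and their partners, 9 fell and 0 rose in cell sheet against MI hearts of the border zone and 7 fell and 0 rose in the remote zone. In this comparison 9.48% of all genes tested fell and 8.47% rose in the border zone. The remote zone had 6.79% lower and 10.3% higher. Eef1b2, an exchange factor of elongation (-0.83), and Tpt1, a TOP mRNA (-0.72), led in the border zone, and Eef1a1, the factor that brings tRNA to the ribosome (-0.93), and Pabpc1, the poly(A)-binding protein (-0.93), in the remote zone. In MI against sham of the infarct zone 6 rose and 6 fell, while 22.7% of all genes tested rose and 27.2% fell. Eef1a1 was at 1.05 and Eef1a2, its form in adult muscle and nerve, at -1.91. Of 34 initiation factors tested, 2 rose and 13 fell in the border zone of cell sheet against MI hearts, with Eif3m (-0.73) and Eif2s2 (-0.69) the lowest and Eif4g1, the scaffold of the cap complex, higher (0.40). The remote zone had 1 higher and 3 lower. MI against sham gave 3, 1 and 1 higher and 13, 11 and 4 lower in the infarct, border and remote zone. Beside the 22.7%, 18.4% and 11.7% of all genes that rose and the 27.2%, 23.2% and 14.2% that fell, the share of initiation factors called higher lay below the background in every zone, and the share called lower lay above it in the infarct and border zone and below it in the remote zone.

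Of 46 genes of ribosome assembly and RNA polymerase I, 2 rose and 9 fell in cell sheet against MI hearts of the border zone. The share that rose lay below the 8.47% of all genes tested, and the share that fell lay above the 9.48%. Nhp2, a protein of the RNA-modifying H/ACA particles, was at -0.82. In the remote zone 4 rose and 2 fell, both below the share of all genes, with Npm1, the nucleolar chaperone, at -0.54. MI against sham had 4, 3 and 2 that rose and 7, 8 and 6 that fell in the infarct, border and remote zone, each a smaller share of the 46 than that of all genes called in the same direction. Of 19 regulators of mTORC1 and of TOP mRNAs, 7 rose and 2 fell in cell sheet against MI hearts of the border zone. Among those that rose were Mtor, the kinase itself (0.51), and Tsc2, its inhibitor (0.45). In the remote zone 7 rose and 0 fell, among them Rptor, the mTORC1 scaffold (0.55), and Larp4b (0.49). Shares of all genes tested were 8.47% higher and 9.48% lower in the border zone, and 10.3% higher and 6.79% lower in the remote zone. For MI against sham the 3 zones had 2, 0 and 0 higher and 10, 10 and 9 lower in the same order. Of all genes tested, 22.7%, 18.4% and 11.7% were higher and 27.2%, 23.2% and 14.2% lower. Rptor was at -0.61 in the remote zone and Myc, an activator of ribosome genes, at 1.19 in the infarct zone. Activity of the kinase is not measured by mRNA. In cell sheet against MI hearts of the infarct zone 0 genes of any of these lists were called, and in cell sheet against sham of the remote zone 0 as well.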

How the data were processed

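Reads of poly(A)-enriched RNA libraries were trimmed and aligned with STAR to the rat assembly mRatBN7.2 by the authors, who deposited whole-number counts per gene symbol for each of 54 libraries, without normalization. Which counter was used, and whether it read the strand, is not given in the sources used here, so reads of overlapping genes, of antisense genes and of near-identical ribosomal copies may be split. The 87 other symbols of the Rpl and Rps kind, mostly copies, held counts equal to 3.65% to 5.04% of those on the members. Closing summary lines of the tables name no gene and were left out, and reads on no gene are given as percent of all counts. The labels number technical replicates, while the study describes 6 hearts per group, so p-values measure only the spread between these libraries, which may be technical. Pairs of libraries within a group were checked for identity by chi-square per degree of freedom (7.97 to 539, with 0 of 135 pairs identical).

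Deposited counts were tested with the quasi-likelihood F test of edgeR 4.0.16 (R 4.3.3), using TMM factors, filterByExpr, only the 12 libraries of each comparison, and Benjamini-Hochberg adjustment over all genes tested at a threshold of 0.05. Differences between zones were tested as interactions with the animal as a block. The share of Rpl3l was tested with an exact permutation test, 2-sided. Scripts were tested on simulated data. Alternatives were DESeq2 1.42.0, all libraries in 1 fit, other filters and scalings, the replicate number as a block, and leaving out each library. Leaving out both animals that stood apart was added after seeing the data. Medians of all genes by protein length, planned at the start, were not computed.

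Named genes were Rpl3 and Rpl3l, up to 5 members per direction and comparison with the largest change among those called, Rplp0, Rplp1, Rplp2, Rpsa, Rps6, Rpl5 and Rpl11, and up to 2 called genes per direction of each related list; some genes that this rule names are not reported here. The members and lists were chosen with earlier results of these data known. Of 12 marker lists, those of neutrophils, endothelial cells, adipocytes, B and plasma cells, T cells, mesothelium, skeletal muscle and proliferating cells are given with the closing observations. Sequences are from RefSeq tables of GRCr8, another build than that of the counts, and were used by symbol only.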

Additional observations from a re-analysis of the deposited data

Results flagged for a closer look

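In groups of 6 libraries, 5 values lay far from the rest of their group by Dixon's criterion, among 18 groups of values examined, and chance flags about 1 in 20. The share of gene counts on the ribosomal protein genes was 5.28% in sham infarct replicate 5, the highest of its group. The share of Rpl3l in the counts of Rpl3 and Rpl3l was 15.6% in sham infarct replicate 5, 13.4% in sham border replicate 5 and 21.1% in sham remote replicate 5, each the lowest of its group, and 27.6% in cell sheet infarct replicate 6, the highest of its group. The 95% binomial interval of each library's share covers counting error only and is narrow beside these gaps.

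The effect of infarction differed between the infarct and the remote zone by the interaction test in 34 of the 74 ribosomal protein genes. Of all genes tested 28.9% differed in either direction. Each of the 34 had a smaller rise, or a fall, against sham in the infarct zone. The test compares effects and not levels.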

How the results depend on the processing

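Numbers of members called, out of 74, are given for each setting that moved them by over 1.5 times. For MI against sham in the infarct zone (28) the number was 18 without the filter on low counts and 18 to 34 on leaving out each library. For MI against sham in the border zone (31) it was 19 without the filter, 61 with library size alone and 11 to 47 on leaving out each library. For cell sheet against sham it was 26 in the infarct zone (17) with DESeq2 on all libraries, 33 with library size alone and 11 to 22 on leaving out each library, 11 in the border zone (46) with library size alone and 31 to 48 on leaving out each library, and 1 in the remote zone (0) with DESeq2 on the same libraries, DESeq2 on all libraries and edgeR on all libraries. For cell sheet against MI in the remote zone (30) it was 12 to 45 on leaving out each library. The cause of these changes was not tested, except that leaving out a library means fewer samples. Cell sheet against MI in the border zone (66) and MI against sham in the remote zone (65) moved by over 1.5 times under 0 alternatives, with 62 to 68 and 55 to 73 on leaving out each library.

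Same-numbered libraries of different treatments come from different rats and their deviations correlated from -0.76 to 0.61, so the numbers do not pair them. With the replicate number as a block, the numbers were 14 and 7 for MI against sham in the infarct and border zone, 20 for cell sheet against sham in the border zone, 52 for cell sheet against MI in the border zone and 0 for cell sheet against MI in the remote zone. Without the animal as a block, the interaction of cell sheet against MI with border against infarct zone had 19 members called (0 with it). On leaving out each animal it ranged from 0 to 8 for infarct against remote zone and from 0 to 1 for border against remote zone. MI against sham with infarct against remote zone had 28 to 44 (34).

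The Rpl3l share of cell sheet minus MI in the infarct zone was 1.11 percentage points without MI replicate 1 (-6.84 to 1.11 over all libraries left out), and cell sheet minus sham in the remote zone was 1.04 without cell sheet replicate 1 (-14.5 to 1.04). Neither was called. Cell sheet minus MI in the remote zone ranged from 23.1 to 34.3. The counts hold none of the mitochondrially encoded protein genes, so TMM factors without them were not run and shares of gene counts do not include them. Very low genes such as Rpl37 are limited by few counts, and reads shared with copies of the gene make the level of Rpl37 uncertain.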

Other observations

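Several other cell type lists were counted beside the ribosomal protein genes. In MI against sham, neutrophil markers rose in 3 of 4 genes tested in the infarct zone, 3 of 4 in the border zone and 3 of 3 in the remote zone. Proliferation markers such as Mki67 and Top2a rose in 2 of 6, 3 of 6 and 2 of 6 genes in the same zones, and 0 fell. Endothelial markers fell in 1 of 5, 1 of 5 and 0 of 5 genes. These were smaller shares than the 27.2%, 23.2% and 14.2% of all genes tested that fell. Of all genes tested, 22.7%, 18.4% and 11.7% rose in the infarct, border and remote zone. Mesothelial markers rose in 2 of 5 genes and fell in 1 in the infarct zone, with 0 called in the other zones. Skeletal muscle markers rose in 2 of 2, 2 of 2 and 1 of 2 genes tested. Of the 6 adipocyte markers listed only 1 passed the filter on low counts, and it cannot stand for the list. It fell in the infarct and border zones and was not called in the remote zone. T cell as well as B and plasma cell markers had 0 genes called by edgeR in all 3 zones (at an unadjusted p under 0.05, 2, 0 and 2 T cell genes and 0 B and plasma cell genes).

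In cell sheet against MI hearts of the border zone, adipocyte markers rose in 2 of 4 genes tested, B and plasma cell markers in 1 of 2 and endothelial markers in 1 of 5, and T cell markers fell in 2 of 6. Of all genes tested, 8.47% rose and 9.48% fell in this comparison. Only 1 adipocyte gene passed the filter in each border zone comparison with sham, so the genes tested depended on the groups compared. The median summed adipocyte level in the border zone was 757 CPM in MI, 1094 CPM in cell sheet and 2315 CPM in sham hearts. In the remote zone neutrophil markers fell in 2 of 3 genes tested, T cell markers fell in 1 of 4, and mural markers rose in 3 of 6, while 10.3% of all genes tested rose and 6.79% fell. Proliferation markers there had 0 of 6 genes called by edgeR, with 6 at an unadjusted p under 0.05, a median log2 fold change of -1.09 and a lowest adjusted p of 0.0559, beside the 30 ribosomal protein genes that fell. Neutrophil, mesothelial, skeletal muscle and proliferation markers had 0 genes called by edgeR in the border zone of this comparison (1, 2, 0 and 1 at an unadjusted p under 0.05), in which 66 ribosomal protein genes fell. No test relates these lists to the ribosomal protein genes.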
